A study of Mus musculus with 14 samples.

Results

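The comparison described here asked whether brain myeloid cells with a conditional gene knockout changed their transcripts after traumatic brain injury (TBI) as much, and in the same direction, as cells of control mice. It was the genotype by hemisphere difference, (cKO IL − cKO CL) − (Ctrl IL − Ctrl CL), where IL is the TBI hemisphere and CL the non-lesion hemisphere of the same brain. All 14 libraries of the series entered it, and 18475 of the 33939 listed genes had enough reads to be tested. The Ctrl mice were Cx3cr1-CreER+/- and the cKO (conditional knockout) mice carried in addition the homozygous floxed allele of the targeted gene. All were C57BL/6 males of 8 to 12 weeks that had been given tamoxifen and a controlled cortical impact, and CD11b+ cells were collected with magnetic beads 3 days later. Ctrl mice gave 4 libraries of each hemisphere and cKO mice 3 of each, from 8 mice in all, of which 4 Ctrl and 2 cKO mice gave both hemispheres (mouse 788 gave only cKO CL and mouse 784 only cKO IL). Cre was driven by Cx3cr1, and the waiting time after tamoxifen let short-lived Cx3cr1+ monocytes be replaced by cells that had not recombined, a step meant to limit the knockout in infiltrating cells. How many of these still carried it was not tested. No sham hemisphere was analysed here, and the non-lesion hemisphere served as the reference in each genotype.

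After a cortical impact, microglia lose the transcripts of their resting state and gain those of phagocytosis, lipid handling, matrix repair, interferon signalling and chemokine release. Monocytes and neutrophils that enter the tissue also carry CD11b and are collected with them. In such bulk samples, fewer cells of a type and less RNA per cell cannot be told apart.

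Levels are given as CPM, the reads of a gene scaled to a library total of 1000000. For each gene they stand in the order of mice 3541, 3545, 3546 and 3551 for Ctrl, 788, 791 and 3592 for cKO CL, and 784, 791 and 3592 for cKO IL. Depth read from the CPM steps was 12.2 to 41.6 M reads per library, and Ctrl IL 3546 was the shallowest. The homeostatic microglial markers summed to 48731 to 57151 CPM in CL libraries and 27005 to 32369 CPM in IL libraries, with the genotypes overlapping in each hemisphere, and P2ry12 and Tmem119, which define microglia, were abundant in every library. Of 16 neutrophil markers, 10 were called lower in IL (12.4% of all genes), and the sums of the genotypes overlapped in each hemisphere. The sum was 1470.3 to 9337 CPM in Ctrl CL (highest in mouse 3541), 1397 to 2580.0 in cKO CL, and 940.2 to 1694 and 955 to 1221 in Ctrl IL and cKO IL.

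The injury response was alike in direction in the 2 genotypes. In a fit with hemisphere and genotype as separate effects, 4162 genes (22.5% of those tested) passed for the common injury effect at a limma adjusted p of at most 0.05 and at least 1.2-fold. Of these, 1870 were higher in IL (10.1%) and 2292 lower (12.4%). The Ctrl and cKO estimates had the same sign for all but 1 of the 4162, a count that choosing genes by the common effect favours. Tested one genotype at a time, 2055 genes passed in Ctrl (11.1%) and 1567 in cKO (8.48%). Ctrl had more libraries and more pairs than cKO, so such counts do not compare the breadth of the responses. Of the 1100 that passed in both, all moved in the same direction. Another 955 passed in Ctrl without passing in cKO, and 912 of them had the same sign in cKO. A further 467 passed in cKO without passing in Ctrl, and 450 of them had the same sign in Ctrl. With the random mouse effect 4415 passed in Ctrl (23.9%), 3277 in cKO (17.7%) and 2362 in both, again all in the same direction. In that fit 1869 of the 2053 genes that passed only in Ctrl, and 823 of the 915 that passed only in cKO, had the same sign in the other genotype. Across the 18475 genes, which are not independent replicates, the responses of Ctrl and cKO correlated with r = 0.795. Within the 499 genes called higher by 2-fold or more r was 0.687, and within the 215 called lower by 2-fold or more 0.192. The spread of the responses over all genes was nearly equal (SD 0.473 in Ctrl and 0.486 in cKO). It was 0.766 and 0.571 for the 499 raised genes and 0.453 and 0.355 for the 215 lowered ones.

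The difference itself passed for no gene. With limma, 0 of 18475 genes (0%) had a genotype by hemisphere difference at an adjusted p of at most 0.05 and at least 1.2-fold, and 489 (2.65%) had an unadjusted p under 0.05, 203 with the higher response in cKO (1.1%) and 286 with the lower one (1.55%). Treating the hemispheres of a mouse as paired, through a random mouse effect, raised this to 5 called genes (0.0271%) and 1270 genes (6.87%) at the unadjusted p. With the mouse as a fixed effect 0 genes passed and 1056 (5.72%) had an unadjusted p under 0.05. The estimate was above 0 for 8989 genes (48.7%) and below 0 for 9486 (51.3%), and its median over all genes was −0.01. The size of the interval shows what could have been seen. Its median half-width was 0.59 on the log2 scale, and for 13157 genes (71.2%) the whole 95% interval lay within 2-fold in either direction. Among the 499 genes raised 2-fold or more, this held for 141 (28.3%), so for most strongly induced genes a difference of 2-fold between genotypes was not excluded by the interval.

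**Figure D1:**
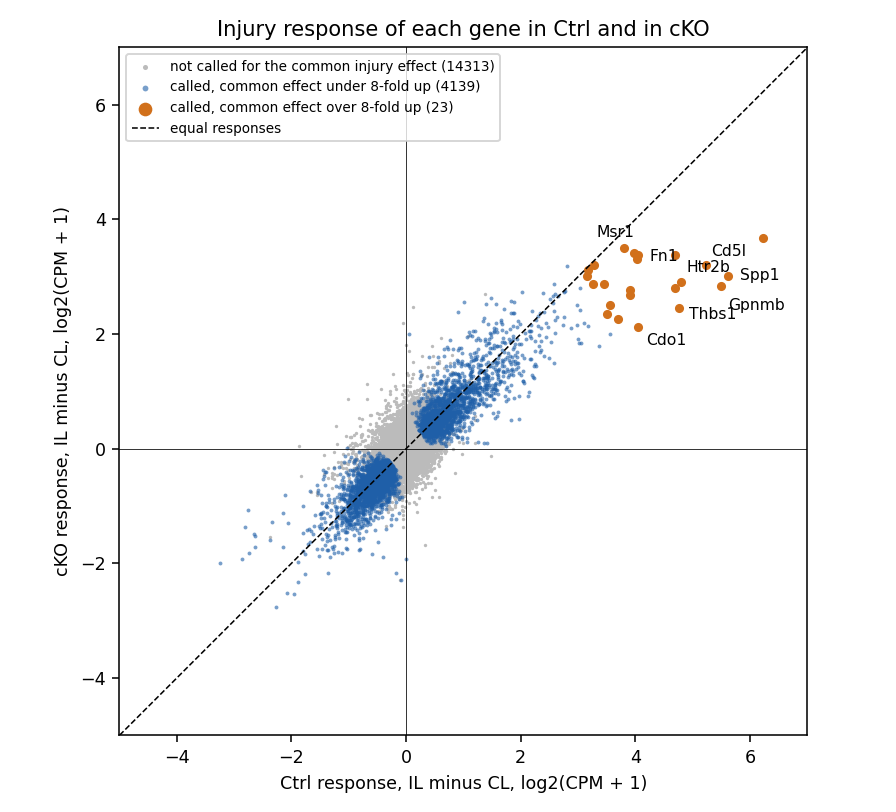
Response of each tested gene (IL minus CL, log2(CPM + 1)) in Ctrl on the x axis and in cKO on the y axis, with the line of equal responses dashed. Blue points are the called genes and orange points the 23 genes raised over 8-fold in common, which all lie below the line; Spp1 lies at 5.61 in Ctrl and 3.01 in cKO.

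Among induced genes, the difference was largest in those raised most. Genes called for the common effect were put into classes by its size, an estimate that is uncorrelated with the difference between genotypes where the spread is equal in all groups. The 1371 genes raised 1.2 to 2-fold had a median response of 0.55 in Ctrl and 0.51 in cKO, and the 409 genes raised 2 to 4-fold 1.36 and 1.28. The 67 genes raised 4 to 8-fold had medians of 2.41 and 2.16, and 47 of them had the lower response in cKO (51.3% of all genes). In the 23 genes raised over 8-fold, the medians were 3.97 in Ctrl and 2.91 in cKO, that is 15.7-fold and 7.5-fold, and the difference was below 0 for all 23. Its median was −1.15 (−1.51 without cKO CL 788 to −0.67 without cKO CL 3592). It was −0.19 in the genes raised 4 to 8-fold (−0.47 to −0.11 without the same libraries) and −0.09 in those raised 2 to 4-fold (−0.23 to −0.0093). On the falling side the 202 genes lowered 2 to 4-fold had medians of −1.14 in Ctrl and −1.26 in cKO, and the 13 genes lowered 4 to 8-fold −2.63 and −1.81, with a median difference of +0.92 (0.29 without Ctrl CL 3541 to 1.80 without Ctrl CL 3551).

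The 23 genes were measured in the same libraries and are not 23 separate results. The median response of the class was 4.0, 4.37, 4.07 and 3.97 in the Ctrl mice and 3.31 and 2.0 in cKO mice 791 and 3592. Both cKO mice were below every Ctrl mouse, and for 13 of the 23 genes both cKO mice lay below all 4 Ctrl mice, against 9.06% of all genes. In single libraries, the levels of the genotypes overlapped in both hemispheres. Against the mean of each gene over the 14 libraries, the class lay at −1.28, −2.20, −2.54 and −2.25 in Ctrl CL and at −2.16, −1.74 and −0.17 in cKO CL. In IL it lay at 2.55, 2.21, 1.60 and 1.71 in Ctrl and 1.40, 1.64 and 1.75 in cKO. The median genotype difference was +0.80 in CL and −0.36 in IL, and the library of cKO CL 3592 held the highest CL level. None of the 23 genes passed by itself (limma adjusted p = 1 for each), 8 had an unadjusted p under 0.05 and the lower response in cKO (1.55% of all genes), and 13 did so with the random mouse effect (4.26% of all genes).

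**Figure D2:**
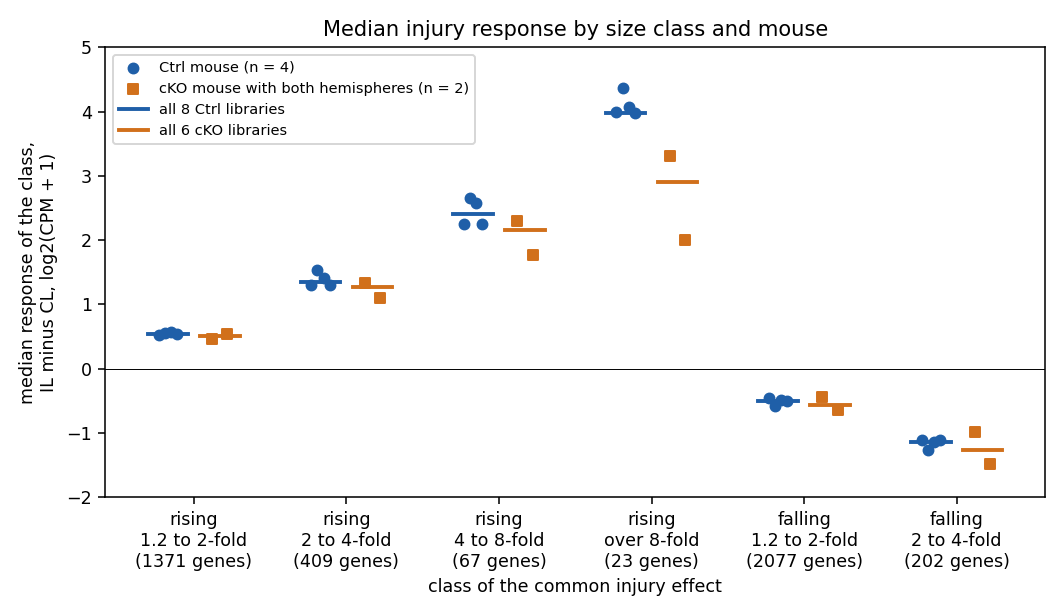
Median response (IL minus CL, log2(CPM + 1)) of the genes in each size class of the common injury effect. Points are single mice with both hemispheres (4 Ctrl, 2 cKO) and lines are the medians over all libraries; the genotypes overlap or lie close in the small classes and part in the class raised over 8-fold, at 3.97 and 2.91.

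The members of this class with values below have different roles. Spp1 (osteopontin, a secreted matrix phosphoprotein; chromosome 5, 104435118 to 104441050) was at 1246, 152, 113 and 466 CPM in Ctrl CL and 20073, 14672, 15698 and 9791 in Ctrl IL. It was at 572, 1749 and 3133 in cKO CL and 11228, 11056 and 12197 in cKO IL. The cKO values fell inside the Ctrl range in IL, while 2 of 3 cKO values exceeded every Ctrl value in CL. The responses were 5.61 and 3.01, and their difference was −2.61 ± 0.99 (SE), with a range of −3.31 without Ctrl CL 3541 to −2.09 without cKO CL 3592.

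For Cd5l, a scavenger receptor-like protein secreted by macrophages, the genotypes parted in the TBI hemisphere. It was at 3.27, 1.93, 1.13 and 3.11 CPM in Ctrl CL and 162, 105, 122 and 81.0 in Ctrl IL, against 0.360, 1.86 and 5.27 in cKO CL and 15.1, 20.6 and 48.8 in cKO IL. All cKO IL libraries lay below all Ctrl IL libraries, and the CL libraries overlapped. The responses were 5.22 and 3.20, a difference of −2.03 (95% interval −3.44 to −0.61).

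Thbs1, the matrix protein thrombospondin-1 that can release TGF-beta from its latent form, had the same order. It was at 58.7, 22.5, 75.6 and 37.6 CPM in Ctrl CL and 1031, 1152, 1389 and 1037 in Ctrl IL, against 61.8, 37.5 and 136 in cKO CL and 173, 462 and 629 in cKO IL. Again no cKO IL library reached a Ctrl IL library, and the responses of 4.76 and 2.46 differed by −2.30 (95% interval −3.69 to −0.91).

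Gpnmb, a lysosome-associated glycoprotein of lipid-loaded phagocytes, was at 102, 14.6, 6.71 and 66.6 CPM in Ctrl CL and 2054, 1129, 1501 and 767 in Ctrl IL. It was at 46.4, 49.1 and 265 in cKO CL and 632, 409.9 and 806 in cKO IL. The IL groups overlapped by a single library pair, and the difference of −2.66 had a 95% interval of −5.04 to −0.27. Htr2b, a serotonin receptor, was at 1.49, 1.05, 0.141 and 0.821 CPM in Ctrl CL and 61.8, 45.8, 47.5 and 36.7 in Ctrl IL, against 1.26, 3.42 and 10.6 in cKO CL and 30.8, 30.8 and 43.7 in cKO IL, with overlap in both hemispheres and a difference of −1.88 (95% interval −3.16 to −0.60). Cdo1, which oxidises cysteine, responded by 4.05 and 2.12, the coagulation factor gene F7 by 3.90 and 2.68, and Hal, which breaks down histidine, by 4.69 and 3.38 (interval of the Hal difference −2.96 to 0.35). Without cKO CL 3592 their differences of −1.93, −1.22 and −1.31 became −1.17, −0.67 and −0.82. Fabp5, a fatty acid carrier, responded by 4.69 and 2.81, and Plin2, the coat protein of lipid droplets, by 3.5 and 2.35, both with intervals that included 0. The Fabp5 difference ranged from −2.40 without cKO CL 788 to −1.07 without cKO CL 3592. That of Plin2 ranged from −1.50 to −0.81 without the same libraries. Other genes of the class had smaller differences, with intervals that included 0. Hmox1, the heme-degrading oxygenase, responded by 3.15 in Ctrl and 3.00 in cKO, the scavenger receptor Msr1 by 3.80 and 3.5, Lgals3 (galectin-3) by 3.26 and 2.88, and Selp (P-selectin) by 3.17 and 3.11. The Msr1 difference ranged from −0.99 without cKO CL 788 to 0.37 without cKO CL 3592, and that of Lgals3 from −0.78 without Ctrl CL 3541 to 0.19 without cKO CL 3592. For Hmox1 it ranged from −0.54 without cKO CL 788 to 0.23 without cKO IL 784, and for Selp from −0.29 without cKO IL 791 to 0.32 without cKO IL 784. Gm6166 and Apoc2 share 78.1% and 78.8% of their 31-base stretches with other genes, Gm6166 mostly with Fabp5, so their values are uncertain.

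**Figure D3:**
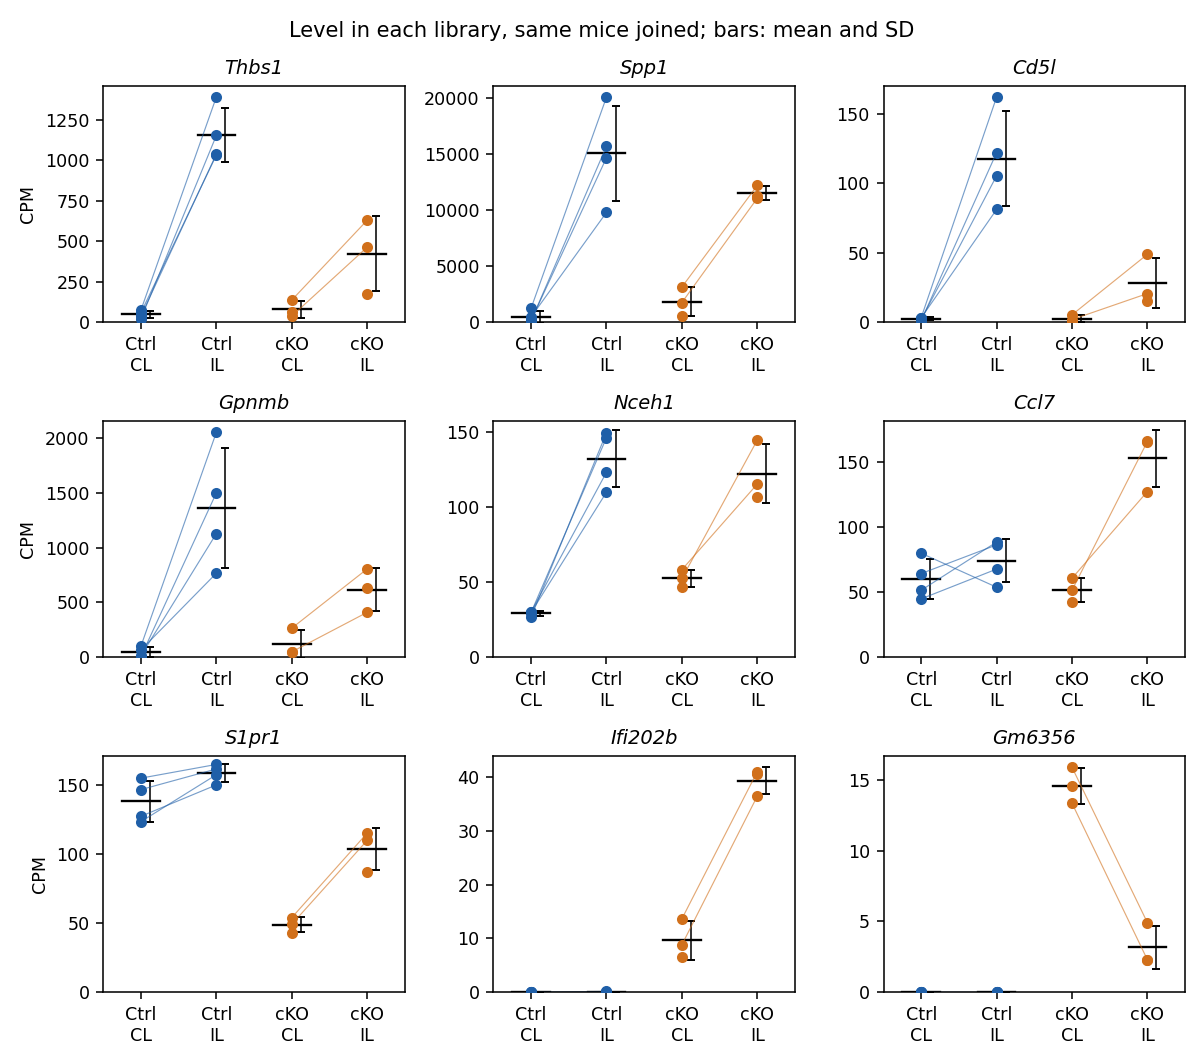
CPM of 9 genes in each library by group, with lines joining the hemispheres of a mouse and bars giving mean and SD. Thbs1, Spp1, Cd5l and Gpnmb rise less steeply in cKO, Nceh1 starts higher in cKO CL, Ccl7 is highest in cKO IL, S1pr1 is lower in every cKO library, and Ifi202b and Gm6356 are at or near 0 in Ctrl.

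Among genes with a clear level in at least one group, the 8 with the smallest p in the direction of a lower cKO response were Nceh1, Bcar3, Slc36a2, Hist1h1c, Gm6356 and Gm3411 (described with the paired fit), Gm42793 and ENSMUSG00000118667. Gm42793 responded by 3.55 in Ctrl and 2.003 in cKO, and ENSMUSG00000118667, which has no symbol, by 1.98 and 0.52. Gm42793 shares 21.8% of its 31-base stretches with other genes, mostly with Spp1 (20.5%), so its values may not be separate from those of Spp1. The common effect was not called for Slc36a2 and Hist1h1c, and it was called lower for Gm6356 and Gm3411. Nceh1, a neutral cholesterol ester hydrolase that frees stored cholesterol, was at 29.8, 30.2, 26.8 and 29.9 CPM in Ctrl CL and 146, 123, 149.6 and 110.0 in Ctrl IL, against 46.7, 58.3 and 52.5 in cKO CL and 107, 115 and 145 in cKO IL. The cKO CL libraries were all above the Ctrl CL libraries and the IL libraries overlapped. Its responses of 2.23 and 1.24 differed by −0.99 (95% interval −1.46 to −0.52; limma adjusted p = 0.752, range over the alternative settings 0.111 to 1.0, with the lowest for the random mouse effect).

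Bcar3, an adaptor in integrin signalling, was at 8.10, 6.29, 5.40 and 8.80 CPM in Ctrl CL and 52.5, 40.7, 42.0 and 42.1 in Ctrl IL, against 9.33, 12.4 and 14 in cKO CL and 30.5, 35.2 and 36.8 in cKO IL. No library of 1 genotype overlapped the other in either hemisphere, and the responses were 2.57 and 1.5. Slc36a2, a proton-coupled amino acid transporter, was at 4.42, 2.91, 5.82 and 3.67 CPM in Ctrl CL and 15.8, 12.6, 16.2 and 7.43 in Ctrl IL, but at 4.91, 3.31 and 6.04 in cKO CL and 3.31, 3.32 and 5.96 in cKO IL. The IL libraries of the genotypes did not overlap, and the response was 1.48 in Ctrl and −0.13 in cKO. Hist1h1c, a linker histone, showed a narrower form of the same order, with responses of 0.44 and −0.17 and CL levels that were all higher in cKO (126, 128 and 138 CPM against 76.5, 73.0, 84.8 and 97.1).

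Of 14 measured genes of the NRF2, heme and iron list, 8 were called higher and 2 lower for the common effect (10.1% and 12.4% of all genes), and 11 had the lower response in cKO (51.3% of all genes), with medians of 1.35 in Ctrl and 0.87 in cKO (difference −0.25, −0.44 to −0.16 with single libraries left out). Gclm, the regulatory subunit of the enzyme that starts glutathione synthesis, was at 30.7, 33.4, 24.8 and 30.6 CPM in Ctrl CL and 114, 106, 101 and 76.1 in Ctrl IL, against 24.4, 27.4 and 37.4 in cKO CL and 38.5, 65.7 and 58.7 in cKO IL. The CL groups overlapped and the IL groups did not. Tfrc, the transferrin receptor, went against its list, with responses of −0.78 in Ctrl and 0.24 in cKO. Of 12 trophic factor genes, 3 were called higher in IL (10.1% of all genes) and 2 lower (12.4%), and 8 had the lower response in cKO, against 51.3% of all genes (medians 0.19 in Ctrl and 0.07 in cKO, median difference −0.22, −0.30 to −0.14 with single libraries left out). Among secreted growth factors, Gdf15 was at 155, 73.3, 49.5 and 109.6 CPM in Ctrl IL and 34.9, 26.8 and 27.0 in cKO IL (responses 1.83 and 0.50). Igf1 was at 21.8, 17.1, 28.3 and 24.3 CPM in Ctrl IL and 5.85, 7.5 and 18.0 in cKO IL (responses 1.2 and 0.10). The interval of the Igf1 difference included 0, and the difference ranged from −1.53 without cKO CL 788 to −0.68 without cKO CL 3592.

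The opposite pattern, a larger response in cKO, appeared in genes of the type I interferon response. In this pathway a secreted interferon activates transcription factors that bind the interferon-stimulated response element (ISRE) in promoters and start transcription of antiviral genes. The window from 250 bases before to 50 bases after the RefSeq start (GRCm38.p6) was searched on both strands for the ISRE core, TTTC, any 2 bases and TTTC (overlapping matches counted). It was found in 3.99% of all genes with a window (1079 of 27025), in 11 of the 17 type I interferon genes with a window (64.7%; 23 genes were listed), in 9 of 9 interferon-gamma GTPases, in 2 of 11 chemokines (18.2%) and in 1 of 15 genes raised over 8-fold (6.67%). The match is a description of sequence and does not show binding. The stretches of 4 genes whose values follow are given 5′ to 3′ on the strand of the gene, with the match nearest to the start in capitals. The windows of Isg15 and Ifit1 hold 3 and 2 matches, and those beside the capitals are in lower case.
Isg15 (chr4:156200845-156200914, minus strand, match 66 bases before the start): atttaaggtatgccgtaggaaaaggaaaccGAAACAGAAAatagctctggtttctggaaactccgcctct
Ifit1 (chr19:34640774-34640843, plus strand, 85 bases before): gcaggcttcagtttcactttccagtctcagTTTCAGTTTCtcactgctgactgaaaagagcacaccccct
Rsad2 (chr12:26456533-26456602, minus strand, 120 bases before): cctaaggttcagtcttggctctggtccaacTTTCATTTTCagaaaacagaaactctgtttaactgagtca
Cxcl10 (chr5:92349063-92349132, minus strand, 213 bases before): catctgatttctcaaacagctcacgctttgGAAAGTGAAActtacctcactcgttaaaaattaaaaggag

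Of the 23 measured type I interferon genes, 17 were called higher in IL for the common effect and none lower (10.1% and 12.4% of all genes), and 22 had the higher response in cKO (48.7% of all genes), Ifih1 being the exception. The median response was 1.11 in Ctrl and 1.94 in cKO, a median difference of 0.63 where all genes had −0.01. Mouse by mouse it was 0.77, 1.18, 1.19 and 1.46 in Ctrl and 1.61 and 1.84 in cKO, and for 10 genes both cKO mice lay above every Ctrl mouse (6.6% of all genes). No gene of the list had an unadjusted p under 0.05 with limma, and 5 had one with the random mouse effect, all with the higher response in cKO (2.61% of all genes). The value rested in part on single libraries, as the median difference was 0.22 without Ctrl CL 3541 and 1.0 without cKO CL 791.

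Isg15, the ubiquitin-like protein carrying the first of these elements, was at 6.32, 3.74, 4.41 and 6.41 CPM in Ctrl CL and 16.9, 12.3, 2.29 and 16.1 in Ctrl IL. It was at 3.96, 12.0 and 4.14 in cKO CL and 32.8, 45.0 and 27.5 in cKO IL. The cKO values in IL exceeded all Ctrl values, and mouse 3546 was the only Ctrl mouse in which IL lay below CL. The responses were 0.91 and 2.39 (difference 1.48, 95% interval −0.12 to 3.09, and 0.87 without Ctrl IL 3546).

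Ifit1, which binds viral RNA, was at 30.6, 11.5, 4.17 and 5.79 CPM in Ctrl CL and 54.4, 37.1, 28.5 and 19.6 in Ctrl IL, against 11.4, 24.5 and 6.39 in cKO CL and 79.2, 99.9 and 40.8 in cKO IL. Rsad2 (viperin, an antiviral enzyme) was at 22, 7.45, 8.05 and 5.91 CPM in Ctrl CL and 43.8, 36.1, 39.0 and 21.8 in Ctrl IL, against 6.67, 21.1 and 5.11 in cKO CL and 64.3, 96.5 and 31.4 in cKO IL. For both genes the genotypes overlapped in both hemispheres, and the difference of the responses was 0.72 (95% interval −1.15 to 2.58) and 0.76 (−0.83 to 2.35). Ddx58, the RNA sensor RIG-I, was at 53.2, 43.5, 45.9 and 36.4 CPM in Ctrl IL and 77.6, 101 and 57.2 in cKO IL, with no overlap there and responses of 0.05 and 0.68 (interval of the difference −0.06 to 1.32). The interferon-gamma GTPases had small responses (median 0.04 in Ctrl and 0.29 in cKO), and 12 of 14 had the higher one in cKO (48.7% of all genes). Their median difference of 0.26 was 0.11 without cKO IL 791 and 0.51 without cKO CL 791.

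**Figure D4:**
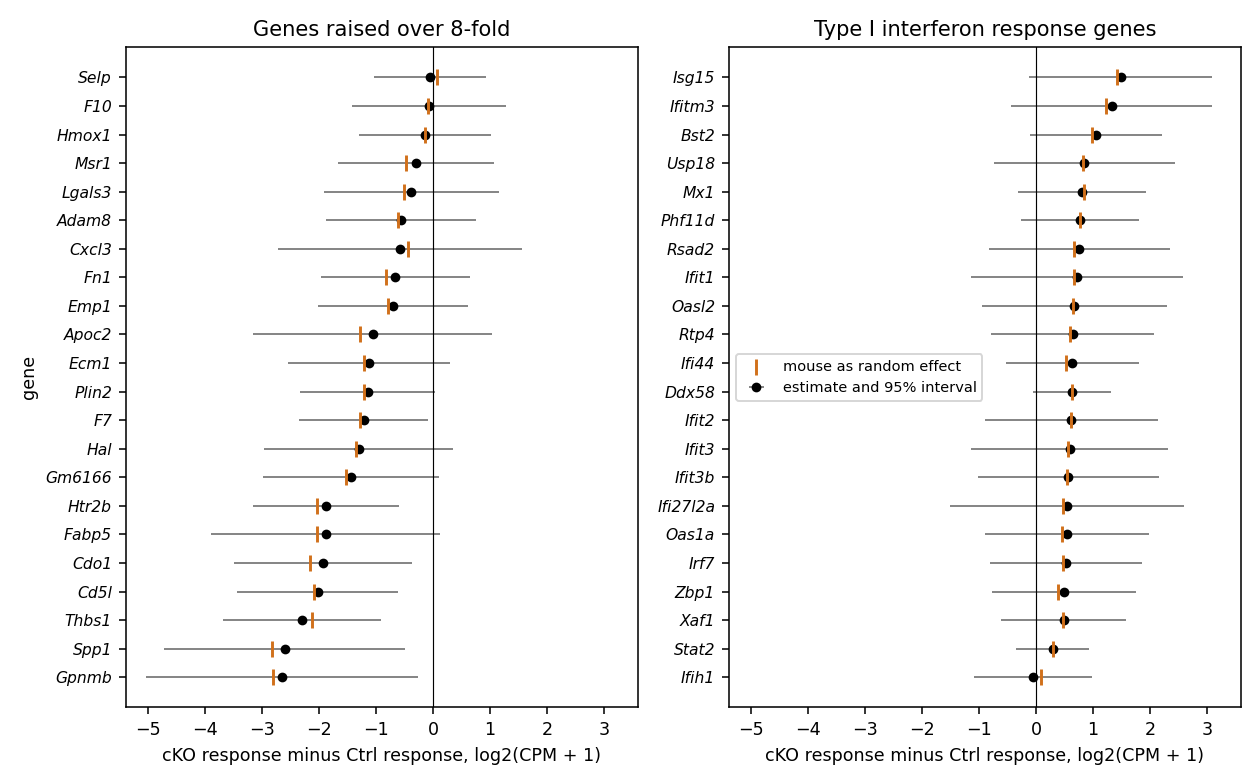
Difference of the responses (cKO minus Ctrl, log2(CPM + 1)) of the genes raised over 8-fold, on the left, and of the type I interferon genes, on the right, with 1 gene of each group not shown. Dots and lines give the estimate with its 95% interval and orange ticks the estimate with a random mouse effect. Most intervals on the left and all on the right include 0.

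Chemokine genes, whose products draw in monocytes and lymphocytes, had the higher cKO response in 15 of 17 cases (48.7% of all genes), with medians of 0.25 in Ctrl and 1.23 in cKO. For 8 the common effect was called higher and for 2 lower (10.1% and 12.4% of all genes). With the higher response in cKO, 3 had an unadjusted p under 0.05 for the difference (1.1% of all genes) and 5 did with the random mouse effect (2.61%). The median difference was 0.51, with 0.12 without Ctrl IL 3546 and 0.74 without cKO IL 3592. Ccl7, a CCR2 ligand, was at 44.9, 51.5, 80.0 and 64.3 CPM in Ctrl CL and 67.8, 88.6, 53.8 and 86.4 in Ctrl IL, against 42.2, 51.5 and 60.7 in cKO CL and 166, 166 and 127 in cKO IL. All cKO IL libraries were above all other libraries. The responses were 0.39 and 1.60, a difference of 1.2 (95% interval 0.55 to 1.86) that stayed between 1.01 and 1.36 with single libraries left out and had a limma adjusted p of 1 (0.359 to 1.0 over the alternative settings).

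Ccl2, the main CCR2 ligand, was at 167, 143, 167 and 225 CPM in Ctrl CL and 194, 265, 101 and 267 in Ctrl IL, against 155, 146 and 134 in cKO CL and 421, 409 and 273 in cKO IL (difference 1.10, 95% interval 0.18 to 2.03). Ccl12 and Cxcl10, the latter a lymphocyte attractant with an ISRE match, had wider errors. Ccl12 was at 219.9, 249.8, 48.2 and 259 CPM in Ctrl IL and 401, 422 and 261 in cKO IL, and its difference of 1.66 became 1.03 without Ctrl IL 3546. Cxcl10 was at 175, 207, 149 and 249 CPM in Ctrl IL and 421, 523 and 184 in cKO IL, with overlap and an interval of −0.48 to 3.16. Complement genes had the higher response in cKO in 11 of 11 cases (48.7% of all genes), and the median difference was 0.39 (0.25 without Ctrl IL 3546 to 0.48 without cKO IL 3592). C5ar1, the receptor of the C5a fragment, was at 476, 330.2, 418 and 398 CPM in Ctrl CL and 654, 693, 590.1 and 630.2 in Ctrl IL, and at 175, 264 and 208 in cKO CL and 557, 637 and 503 in cKO IL. Here the groups did not overlap in CL, where cKO was lower, and did overlap in IL. Relb, a subunit of the non-canonical NF-kB pathway, was at 36.0, 33.1, 37.0 and 33.4 CPM in Ctrl IL and 61.6, 71.9 and 45.4 in cKO IL, with no overlap there (responses −0.11 and 0.65), though its list of 12 genes had a median difference of 0.13 (0.01 without Ctrl CL 3541 to 0.27 without cKO IL 3592). Cytokine genes had medians of 0.56 in Ctrl and 0.98 in cKO, and 10 of 14 had the higher response in cKO (48.7% of all genes). Their median difference of 0.22 was −0.03 without cKO IL 791 and 0.52 without cKO IL 3592. Il1b responded by 1.2 and 1.08, and Tnf by 0.38 and 0.92 with an interval of the difference of −0.62 to 1.69. The Tnf difference ranged from 0.06 without cKO CL 3592 to 0.78 without cKO IL 3592.

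When the hemispheres of a mouse were paired through a random effect, 5 genes passed, and all had little or no signal in Ctrl. Ifi202b and the 3 Gm genes among them passed the filter on low values through the cKO libraries. The Ctrl responses were near 0, and the difference restates the response in cKO. None passed with the mouse as a fixed effect. Ifi202b (chromosome 1, 173962568 to 173982744, minus strand), an interferon-inducible member of the p200 family, was listed at 0 in 7 of 8 Ctrl libraries and at 0.164 CPM in the other (Ctrl IL 3546). It was at 6.53, 13.6 and 8.83 CPM in cKO CL and 40.5, 41.0 and 36.4 in cKO IL. The cKO response was 2.01, and the difference was 1.96 (limma adjusted p = 0.0645) and 1.88 with the random mouse effect (adjusted p = 0.00551, the lowest of a range to 1.0 over the alternative settings). It also passed without cKO CL 791, at 2.19. Since the gene was all but absent in Ctrl, the fold between genotypes was not computed.

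The other 4 fell in the TBI hemisphere of cKO mice under the paired fit. Gm6356 was at 14.5, 15.9 and 13.3 CPM in cKO CL and 2.31, 4.91 and 2.30 in cKO IL, with a difference of −1.92 (limma adjusted p = 0.0645, and 0.00551 paired), and passed unpaired without cKO IL 791, at −2.24. Gm3411 was at 16.0, 16.3 and 11.4 CPM in cKO CL and 0.936, 2.78 and 3.03 in cKO IL, and Gm3755 at 1.91, 2.06 and 2.18 and at 0.342, 0.721 and 0.763. Both were under 0.4 CPM in every Ctrl library. These 3 lie within a short span of chromosome 14 and belong to a repeated family. They share 67.1%, 88.5% and 95.5% of their 31-base stretches with 105, 138 and 191 other genes, so the reads cannot be assigned to a single copy with certainty. Susd4, a complement-regulating membrane protein with no shared stretches, was at 7.08, 4.59 and 6.82 CPM in cKO CL and 0.410, 0.836 and 0.40 in cKO IL, against 0.817, 0.577, 0.0706 and 0.747 in Ctrl CL and 0.171, 0.0569, 0.736 and 0.526 in Ctrl IL. Only cKO CL stood apart, and the paired difference was −1.94 (limma adjusted p = 0.0487).

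These genes sit in chromosome regions rich in genotype differences. For the genotype effect common to both hemispheres, 699 genes were called (3.78%), 411 higher in cKO (2.22%) and 288 lower (1.56%), in a fit that takes the 14 libraries as independent. With the random mouse effect 411 were called (2.22%), 231 of them higher in cKO. Within 10 Mb of Ifi202b, 33 of 211 tested genes were called for genotype without the mouse effect (15.6%) and 22 with it (10.4%). Within 10 Mb of Gm3411 they were 23 of 85 (27.1%) and 14 (16.5%). These regions were chosen after the values were seen, and the cause of these shares was not tested. The 699 called genes had a median difference between responses of −0.05.

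Some genes that were lower in cKO CL had the higher response in cKO. S1pr1, the sphingosine-1-phosphate receptor, was at 124, 155, 147 and 128 CPM in Ctrl CL and 158, 165, 162 and 150.3 in Ctrl IL, against 43.3, 54.1 and 49.3 in cKO CL and 86.9, 115 and 110.1 in cKO IL. The genotype effect was −1.04 (limma adjusted p = 0.000444 without the mouse effect and 0.00463 with the random mouse effect). S1pr1 was lower in every cKO library, and the gap was smaller in IL. Its responses were 0.29 and 1.11, a difference of 0.81 (95% interval 0.37 to 1.26; limma adjusted p = 1, range 0.111 to 1.0). Fcrl1, an Fc receptor-like protein, was at 31.9, 36.4, 50.1 and 34.8 CPM in Ctrl CL and 24.8, 25.5, 35.7 and 24 in Ctrl IL, but at 1.61, 1.09 and 3.37 in cKO CL and 4.21, 3.11 and 5.04 in cKO IL (responses −0.37 and 0.84). Ccn1, a matricellular protein, was at 52.1, 80.8, 53.5 and 43.3 CPM in Ctrl CL and 17.8, 26.6, 38.0 and 21.3 in Ctrl IL, but at 19.1, 16.4 and 28.1 in cKO CL and 22.8, 24.8 and 23 in cKO IL, so that the genotypes parted in CL and overlapped in IL (responses −1.05 and 0.21, interval of the difference 0.49 to 2.03). Vcam1, an adhesion molecule for leukocytes, was at 154, 106, 74.8 and 61.2 CPM in Ctrl CL and 28.2, 39.4 and 28.1 in cKO CL, while the IL groups overlapped (responses −0.95 and 0.21, interval of the difference 0.21 to 2.12).

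A list of 24 genes was drawn up from the study, and all were measured here. It leaves out Hif1a, Slc2a5 and Ldhb, which the study also names. It holds Spp1 and Igf1, which the study cites from earlier work. Of the 24 genes, 13 were called for genotype (3.78% of all genes), 5 of them higher and 8 lower in cKO (2.22% and 1.56%). With the random mouse effect 10 were called (2.22% of all genes). None passed for the difference between responses. Tpm3, a tropomyosin, had a genotype effect of −2.02 and a difference between responses of −0.22 (95% interval −0.61 to 0.16). Napepld, which makes N-acylethanolamines, had −0.64 and 0.01. Fcgr1, the high-affinity IgG receptor, was higher in every cKO library, with 1.07 and 0.53 (interval −0.03 to 1.09). Of the 24, 11 had the higher response in cKO and 13 the lower one. Many of these genes were picked in the study from the same libraries, so the list is not independent evidence of a direction.

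Homeostatic genes had nearly equal responses. All 16 homeostatic microglial genes were measured and 14 were called lower in IL (12.4% of all genes), with medians of −0.94 in Ctrl and −0.96 in cKO and a median difference of −0.01 (−0.11 without cKO CL 791 to 0.08 without Ctrl CL 3551). P2ry12, the ADP receptor of resting microglia, was at 3747, 5347, 4409.9 and 3982 CPM in Ctrl CL and 1461, 1769.8, 1736 and 1423 in Ctrl IL, against 4979.6, 4046 and 5416 in cKO CL and 1785, 1849 and 1639 in cKO IL. The hemispheres did not overlap and the genotypes did, with responses of −1.35 and −1.41 (interval of the difference −0.64 to 0.53). Of 24 glycolysis and hypoxia genes, 16 were called higher and none lower (10.1% and 12.4% of all genes), with medians of 0.73 and 0.91 and a median difference of 0.01 (−0.17 without cKO IL 791 to 0.19 without Ctrl IL 3545). The disease-associated microglia list, which holds Spp1, Gpnmb and Fabp5, had 13 of 21 genes called higher and 1 lower against the same shares. Its median response was 0.84 in Ctrl and 0.92 in cKO, while its median difference had the other sign at −0.21 (−0.40 without cKO CL 3592 to 0.03 without cKO CL 791). Lysosomal genes had medians of 0.43 and 0.46, but 10 of 15 had the lower response in cKO (51.3% of all genes) and the median difference was −0.11 (−0.21 without Ctrl IL 3551 to −0.0088 without Ctrl CL 3546). Among the 17 matrix and wound genes, 14 were called higher (10.1% of all genes) and 12 had the lower response in cKO (51.3%), with a median difference of −0.03 (−0.27 without Ctrl IL 3546 to 0.02 without Ctrl IL 3545). In 18 of 21 immediate early genes, which also rise during cell isolation, the difference was below 0 (51.3% of all genes). The median of the list fell by more in cKO (−0.41 in Ctrl and −0.65 in cKO). Its median genotype difference was 0.43 in CL and 0.10 in IL. The median difference between the responses was −0.29. It was −0.38 without cKO IL 784 and −0.17 without Ctrl CL 3545.

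**Figure D5:**
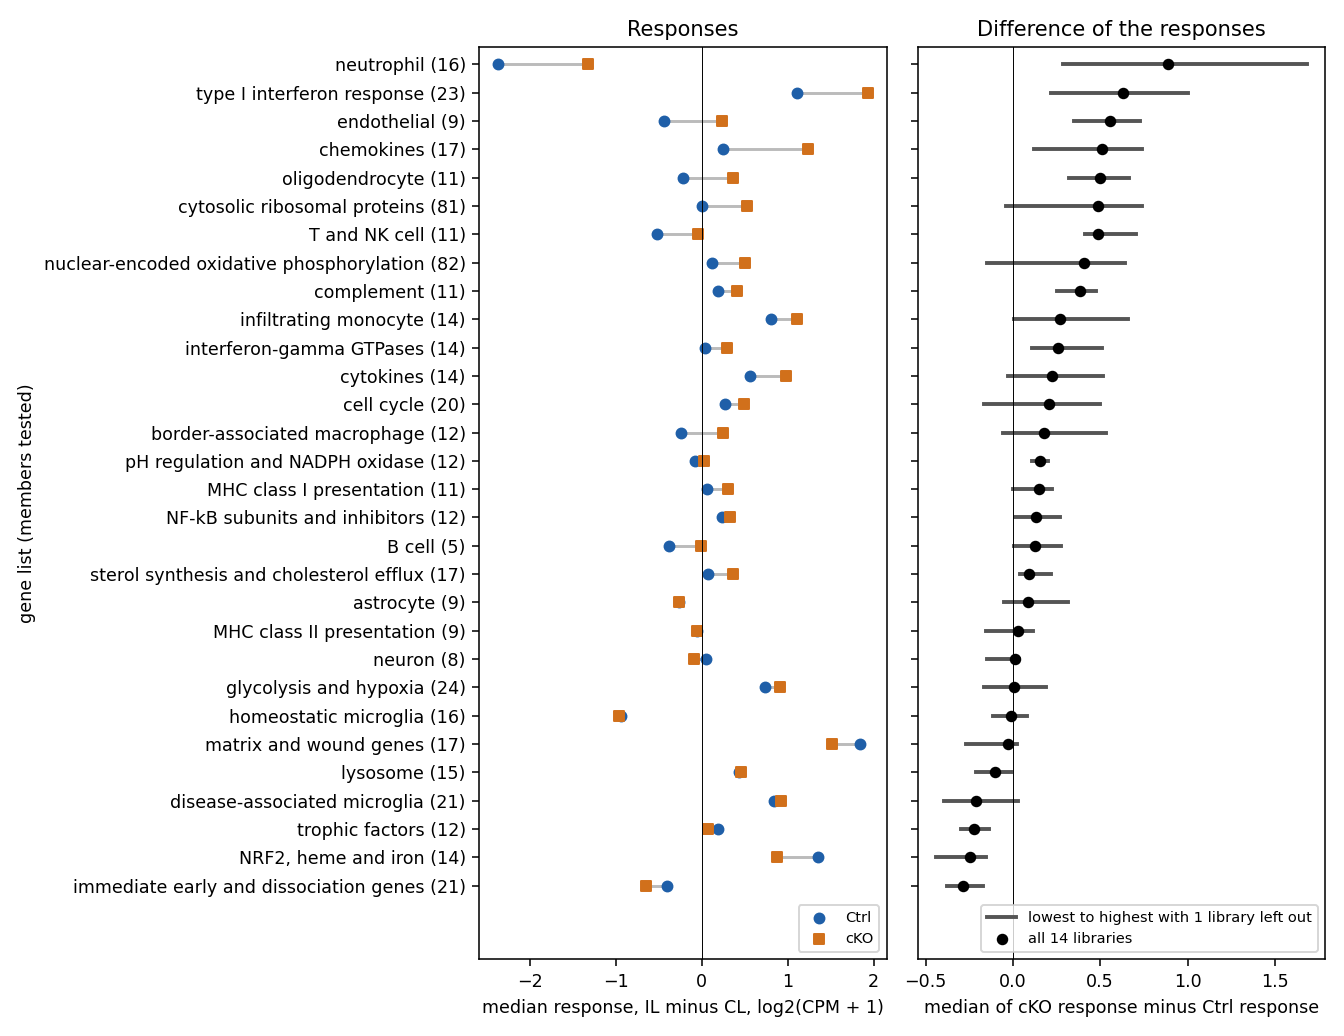
Median response of each gene list in Ctrl and cKO (left) and median of the difference cKO minus Ctrl with its range when single libraries are left out (right), in log2(CPM + 1) units; the number of tested genes is in brackets. Homeostatic genes coincide near −0.95 in both genotypes, while type I interferon genes lie at 1.11 and 1.94 and the range of the ribosomal and oxidative phosphorylation lists reaches past 0.

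In most lists of other cell type markers, most members had the difference above 0, while the 8 neuron markers split 4 and 4. As a list, the neutrophil markers fell less in cKO, with a median genotype difference of −1.25 in CL and −0.26 in IL. That difference was −0.48 and 0.08 for oligodendrocyte markers and −0.76 and −0.04 for endothelial markers. All 16 neutrophil markers had the difference above 0, with medians of −2.37 in Ctrl and −1.33 in cKO, and 10 were called lower in IL and 1 higher (12.4% and 10.1% of all genes). Over all genes 48.7% had the difference above 0. Their median difference of 0.89 was 0.28 without Ctrl CL 3541 and 1.68 without Ctrl CL 3551. Ltf, a neutrophil granule protein, was at 1717, 482, 886 and 86.0 CPM in Ctrl CL and 128, 214 and 345 in cKO CL, with overlap. The 13 genes lowered 4 to 8-fold were led by neutrophil granule genes. All 11 oligodendrocyte markers and all 9 endothelial markers also had the higher response in cKO (medians −0.22 and 0.36, and −0.44 and 0.24). Their median differences were 0.50 (0.32 without Ctrl IL 3541 to 0.66 without Ctrl CL 3541) and 0.56 (0.35 without Ctrl CL 3541 to 0.73 without Ctrl CL 3551). Their sums were low, at 225 to 320.4 CPM in Ctrl CL and 179 to 219 in cKO CL for oligodendrocyte markers and 151 to 366 and 106 to 205 for endothelial markers. Infiltrating monocyte markers had medians of 0.80 and 1.11 and a median difference of 0.27, which was 0.0066 without cKO CL 788 and 0.66 without Ctrl CL 3551. The part of these cells in the differences above was not tested.

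Ribosomal and oxidative phosphorylation genes depended on the shallowest library. Of 81 cytosolic ribosomal protein genes, 76 had the higher response in cKO (48.7% of all genes), with medians of −0.00 and 0.53, and of 82 nuclear-encoded oxidative phosphorylation genes 74 did, with 0.12 and 0.50. Without Ctrl IL 3546 the median differences of 0.49 and 0.41 became −0.04 and −0.15, and the highest values were 0.74 without Ctrl IL 3545 and 0.64 without Ctrl IL 3541. Leaving out that library also moved the differences of Isg15, Ccl12 and the chemokine list, as given above, and the part of its depth in these values was not tested.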

How the data were processed

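RNA of CD11b+ cells was sequenced after amplification (SMART-Seq v4), and the authors aligned reads with STAR to mm10 in Partek Flow 8.0. The deposited table, called raw counts, holds CPM, since every library sums to 1000000. The CPM steps gave each depth. Only 75.3 to 81.2% of values under 100 reads lay within 0.03 reads of a whole number, so no count test was run. Fold changes and p-values deposited by the authors were not used.

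Genes with at least 0.293 CPM (10 reads) in 3 libraries and 15 reads in all were kept. CPM was scaled by TMM factors (0.871 to 1.12), turned into log2(CPM + 1), which understates changes of low genes, and fitted with limma 3.58.1 (R 4.3.3; 4 group means, variance trend, Benjamini-Hochberg adjustment). Intervals are at 95%. The common injury and genotype effects came from an additive fit. Each library is 1 hemisphere of 1 mouse. Pairing came from the mouse numbers in the labels: deviations of same-mouse libraries correlated at 0.184 to 0.604, others at −0.529 to 0.498 with a median of −0.218, so the paired fit (random effect, consensus correlation 0.444) is given where it changed a call.

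Genes named were the 8 smallest p for the difference in each direction. The 5 largest common injury and genotype effects in each direction were also named (all these with a group mean of at least 3). So were the genes listed from the study and the extreme members of each list. Genes raised over 8-fold and those called in the paired fit were added after the values were seen. The members and lists were chosen with earlier results of these data known. Gene coordinates are from the GENCODE annotation of GRCm38, and promoters from RefSeq. The fit was checked on simulated data. The targeted gene and a few others are not reported here.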

Additional observations from a re-analysis of the deposited data

Results flagged for a closer look

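In 19 of 260 sets of 4 Ctrl libraries (7.31%), the highest or lowest library stood apart from the other 3 by more than Dixon's 95% limit, a rule that chance meets in about 1 in 20 sets. Ctrl IL 3546, the shallowest library, was the one apart in 9 of them. It was low for Ltc4s (29.0 CPM), Ccl12 (48.2), Jund (694), Rpl29 (11.2) and Cox6a2 (0.900), and high for Tfrc (27.6), Cd4 (4.34), Ifi202b (0.164) and Gm3411 (0.178). Other libraries apart in Ctrl IL were mouse 3551 for Vcam1 (33.1 CPM, low) and Cd3g (0.0877, low), mouse 3541 for F7 (26.8, high), and mouse 3545 for Gm3755 (0.0855, high). In Ctrl CL they were mouse 3545 for Psen2 (12.8 CPM, low), Fn1 (15.1, low), Cbr2 (93.9, high) and Gm3755 (0.108, high), mouse 3551 for Tgfb1 (111.0, low) and mouse 3541 for Uqcrc1 (299.8, high).

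With mouse as a random effect, limma's test called the response in cKO against that in Ctrl for 5 genes, all at or near 0 in Ctrl, so that the difference restates the cKO response: Ifi202b (1.88), Susd4 (−1.94), Gm3411 (−2.06), Gm3755 (−0.87) and Gm6356 (−1.87). With the mouse as a fixed effect 0 genes passed.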

How the results depend on the processing

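The count of genes with a genotype by hemisphere difference was 0, and became 5 with the replicate block (mouse as a random effect), 4 with library weights, 2 without the variance trend, and 0 to 1 with single libraries left out. With the mouse as a fixed effect it was 0, and 1056 genes had an unadjusted p under 0.05. The common injury effect was called for 714 genes at 2-fold or more, 5720 with the random mouse effect and 5073 with the fixed one. The genotype effect, 699 genes, was called for 411 with the replicate block, 341 with the 12 paired libraries, 3221 with library weights, 209 at 2-fold or more, and 432 to 922 with single libraries left out. It cannot be fitted with mouse as a fixed effect. The median difference over rising genes, −0.05, was −0.0029 on the deposited CPM, −0.013 with no filter, −0.12 at 2-fold or more, and −0.11 to −0.025 with single libraries left out. Over falling genes, −0.06, it was −0.00199 on the deposited CPM, −0.12 at 2-fold or more, and −0.11 to −0.011. Rising genes were 44.9% of injury calls, 35.8% on the deposited CPM and 51.7% with no filter. Except where the settings themselves differ (fold limit, number of libraries), the cause was not tested. Of 3428 alternative values for 133 genes chosen by the rule under 26 settings, 3416 were on the same side of the threshold, 12 (5 genes, those of the paired fit) passed in place of not passing, and 105 changed sign without a call. Size classes, the 10 Mb regions and the 2 added gene groups were chosen after seeing the data. DESeq2 and edgeR were not run, as the values are CPM.

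Only 2 cKO mice gave both hemispheres, and leaving out Ctrl IL 3546, cKO CL 3592 or Ctrl CL 3541 moved several medians. The median half-width of the unadjusted 95% interval was 0.59 on the log2 scale, and larger differences also missed the adjusted threshold.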

Other observations

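Penk, which encodes the enkephalin precursor, was at 5.51, 3.54, 0.635 and 1.06 CPM in Ctrl CL and 1.34, 3.70, 2.54 and 2.25 in Ctrl IL, against 0.637, 1.27 and 4.65 in cKO CL and 22.5, 11.5 and 10.2 in cKO IL. All cKO IL libraries were above all others, and the difference of the responses was 2.34 (95% interval 0.81 to 3.88; limma adjusted p = 1).

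A pair of genes differed widely among cKO mice, in both hemispheres alike. Spint1 was at 171 CPM in cKO CL 788, 0.983 in cKO CL 791 and 93.8 in cKO CL 3592, and at 0.644 in cKO IL 784, 0.679 in cKO IL 791 and 97.7 in cKO IL 3592. Mouse 784 and mouse 788 therefore differed by more than the hemispheres of mouse 791 or of mouse 3592 did. Gm13394 was at 424, 283 and 1.04 CPM in cKO CL 788, 791 and 3592, and at 414, 489.6 and 0.579 in cKO IL 784, 791 and 3592.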
